A study of Mus musculus with 4 samples.

Results

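Alveolar macrophages are the resident phagocytes of the air spaces of the lung, and 10 genes known to mark them were followed here: Marco, Siglecf, Mrc1, Itgax, Fabp4, Car4, Pparg, Atp6v0d2, Krt79 and Cidec. They were taken by gene symbol from a table of 24421 genes, and all 10 were found. RNA with poly(A) tails was sequenced in 4 libraries from separate mice on a C57BL/6 background, 2 labelled Usp25+/+ (animals 139 and 140) and 2 labelled Usp25-/- (animals 826 and 850), which lack the deubiquitinating enzyme Usp25. By the labels, every animal was a female of 8 weeks that received 2.5% dextran sulfate sodium (DSS), an agent that injures the colon lining, in its water for 5 days, with 2 further days on plain water, and the tissue was a piece of colon close to the anus. The labels do not say which part of Usp25 is removed or in which cells. Values are FPKM, fragments per kilobase of transcript scaled to the mapped fragments of the library, and the number of reads behind them is unknown.

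The labelled tissue and sex did not match the transcripts. The 12 listed colon epithelial markers had library medians of at most 0.147 FPKM, and Cdx1 and Aqp8 were listed at 0 in all 4 libraries. The 3 of that list with a mean of at least 1 FPKM, Lgals4, Krt20 and Guca2a, were higher and without overlap in Usp25-/-. Of all 12011 genes with such a mean, 19.0% were, and of these 3 genes 0 passed limma at an adjusted p of 0.05. Lgals4 stood at 7.04, 9.83, 70.6 and 28.8 FPKM in 139, 140, 826 and 850. The whole list summed to 12.6, 14.0, 142 and 40.8 FPKM, with Lgals4 and Krt20 at 70.6 and 52.4 FPKM in 826. The 10 lung epithelial markers had library medians of 68.1 to 121 FPKM. Ddx3y and Eif2s3y, both Y-linked, were at least 12.7 FPKM in every library, and Xist was at most 0.110 FPKM. The targeted gene was itself listed with 38.5 and 16.6 FPKM in the libraries labelled Usp25+/+ and at 2.65 and 1.71 FPKM in those labelled Usp25-/-. The values below therefore describe libraries grouped by their genotype label, not the colon after DSS. Animal 139 stood apart in its neutrophil markers, 9 genes that summed to 41747 FPKM there and to 759, 2087 and 1227 FPKM in 140, 826 and 850. The libraries also differed in the number of genes above 0, at 20556 in 139, 17242 in 826, 15805 in 850 and 15603 in 140.

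In the lung, alveolar macrophages clear inhaled particles and spent surfactant. Their identity depends on GM-CSF and TGF-beta, which induce the nuclear receptor PPAR-gamma, and PPAR-gamma in turn drives genes of lipid uptake and storage. PU.1 is the general transcription factor of myeloid cells. Of the 10 genes, Marco and Mrc1 encode scavenger and mannose receptors, Siglecf a sialic acid-binding receptor, and Itgax the integrin chain CD11c. Fabp4 and Cidec act in lipid transport and lipid droplets, Car4 is a membrane-bound carbonic anhydrase, Atp6v0d2 a subunit of the proton pump of lysosomes, and Krt79 a keratin.

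Promoter sequences from RefSeq (GRCm38.p6) were at hand for 8 of the 10 genes, with 11 starts among them, and were not at hand for Atp6v0d2 and Fabp4. Below are the 250 bases before the start of Marco, which was high in 139 and 826, and of Car4, which was high in 140 and 850, and of Pparg and Siglecf, the genes whose genotypes did not overlap. For Pparg the start shown is, of its 3, the one with a match to both 6-base motifs searched. Each runs 5′ to 3′ on the strand of its gene, and capitals mark GAGGAA, the core of PU.1 boxes, or its complement TTCCTC.
Marco (chr1:120505025-120505274, minus strand): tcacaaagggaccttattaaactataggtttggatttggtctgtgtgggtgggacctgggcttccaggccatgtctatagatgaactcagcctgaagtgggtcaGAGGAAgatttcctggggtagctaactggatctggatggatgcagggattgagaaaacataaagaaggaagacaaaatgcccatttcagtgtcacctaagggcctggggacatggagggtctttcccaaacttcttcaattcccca
Car4 (chr11:84957504-84957753, plus strand): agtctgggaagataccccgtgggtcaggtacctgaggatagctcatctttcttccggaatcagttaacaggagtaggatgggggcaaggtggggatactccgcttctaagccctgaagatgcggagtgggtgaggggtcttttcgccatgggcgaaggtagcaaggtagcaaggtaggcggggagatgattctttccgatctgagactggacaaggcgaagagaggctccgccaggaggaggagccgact
Pparg (chr6:115362099-115362348, plus strand): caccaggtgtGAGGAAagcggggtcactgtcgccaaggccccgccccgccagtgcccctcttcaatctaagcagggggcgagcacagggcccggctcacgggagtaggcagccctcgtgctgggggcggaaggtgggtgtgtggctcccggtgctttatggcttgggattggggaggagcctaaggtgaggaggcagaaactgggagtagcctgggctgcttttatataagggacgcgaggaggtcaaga
Siglecf (chr7:43351091-43351340, plus strand): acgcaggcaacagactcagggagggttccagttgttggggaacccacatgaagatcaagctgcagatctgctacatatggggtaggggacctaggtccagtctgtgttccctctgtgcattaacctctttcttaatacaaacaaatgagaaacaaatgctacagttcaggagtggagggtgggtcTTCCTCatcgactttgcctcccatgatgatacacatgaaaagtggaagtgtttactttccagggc

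GAGGAA was found on either strand in 4 of the 11 member promoters (Marco, Mrc1, Siglecf and one start of Pparg), where 23.3% of all 32851 promoters of the same length hold it. In Marco it begins 146 bases before the start, and Car4, Itgax, Cidec and Krt79 had no match in this window. The longer PU.1 box GAGGAAGT, which contains that core, was found in 0 of the 11, against 2.44% of all promoters. The direct repeat bound by PPAR-gamma with RXR, searched on both strands as 2 copies of AGGTCA with 1 base between them, was also found in 0 of the 11 and in 0.0335% of all promoters. Its half-site AGGTCA, contained in that repeat, stood at 2 starts of Pparg, 28 and 9 bases before them, where 14.0% of all promoters have one. These matches are letters in a window and show no binding.

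All 10 genes reached the mean of 1 FPKM required for testing, and their levels spanned a wide range. Fabp4, Atp6v0d2 and Car4 were the most abundant, with means over the 4 libraries of 343, 321 and 309 FPKM. Mrc1, Itgax and Marco followed at 167, 136 and 102 FPKM, then Pparg at 57.2 and Siglecf at 31.6 FPKM. Fabp4 lay above 97.4% to 98.4% of the 12011 tested genes in each library. Cidec, at a mean of 4.65 FPKM, and Krt79, at 1.65 FPKM, lay far lower. Krt79 passed the filter through animals 139 and 826, since it was below 1 FPKM in the other libraries.

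**Figure D1:**
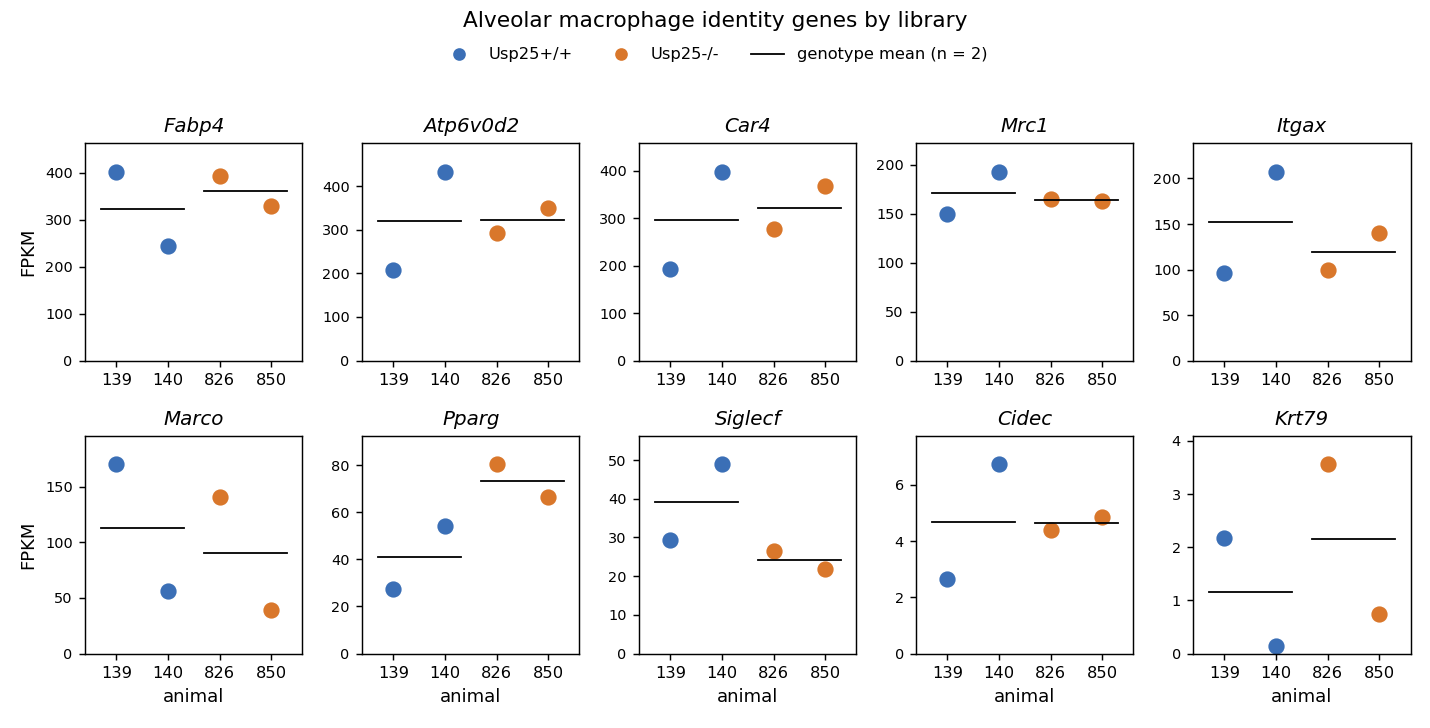
FPKM (y axis, from 0, scaled to each gene) of the 10 alveolar macrophage identity genes in the 4 libraries (x axis, animal numbers), with a horizontal line at each genotype mean (n = 2). Pparg and Siglecf are the genes whose Usp25+/+ and Usp25-/- points do not overlap. In 8 of the 10 genes, Marco among them, animals of one genotype differ more on average than the genotypes do, in log2 units.

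None of the 10 genes passed the test between the genotypes. In limma on log2(FPKM + 1), with Benjamini-Hochberg adjustment over 12011 genes, 0 genes in all (0%) had an adjusted p under 0.05, and 375 genes (3.12%) had an unadjusted p under 0.05, none of them a member. Of the members, 6 had a log2 fold change above 0 and 4 below, with a median of 0.09 (Usp25-/- minus Usp25+/+), where the median of all tested genes was 0.03 and 53.5% lay above 0. There was no overlap between the genotypes in 2 of the 10, Pparg higher and Siglecf lower in Usp25-/-. Among all tested genes they did not overlap in 33.8%, with 19.0% higher and 14.7% lower, so the members' share was not above the background. Usp25 itself, at a log2 fold change of -3.07, did not pass either (limma adjusted p = 0.960), so large differences can also be missed. The smallest two-sided p that an exact permutation test of 1 gene can reach with 2 libraries against 2 is 1 in 3. The libraries hold tissue RNA, in which fewer macrophages and less RNA per macrophage cannot be told apart.

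Pparg, the nuclear receptor of the program, stood at 27.4 and 54.3 FPKM in Usp25+/+ 139 and 140, compared with 80.4 and 66.6 FPKM in Usp25-/- 826 and 850. Both Usp25-/- libraries lay above both Usp25+/+ libraries, and animal 139 was by far the lowest. The means were 40.9 ± 19.0 and 73.5 ± 9.76 FPKM (SD, n = 2 each). The log2 fold change was 0.90 with a 95% interval of -0.16 to 1.97 (limma adjusted p = 0.960). It shrank to 0.42 without animal 139 and was 1.38 without 140. The gene lies at chr6:115311239-115440419 on the plus strand of mm9, the same assembly as NCBIM37, with up to 8 exons in a GENCODE vM1 transcript.

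Siglecf, the receptor by which alveolar macrophages are often sorted, had 29.2 and 48.9 FPKM in the Usp25+/+ animals and 26.5 and 21.9 FPKM in the Usp25-/- animals. Both Usp25-/- libraries lay lower, although 826 lay close below 139. The means were 39.1 ± 13.9 and 24.2 ± 3.26 FPKM (SD, n = 2 each), and the log2 fold change was -0.63 with a 95% interval of -1.55 to 0.29 (limma adjusted p = 0.960). It ranged from -0.99 to -0.27 when 1 library was left out, the smaller size being that without animal 140. Siglecf is also known from eosinophils, whose granule genes Prg2 and Epx were at most 0.663 and 0.211 FPKM in any library. Of the 6 eosinophil markers, 4 were under 1 FPKM in every library, and the list summed to 1.66 to 6.62 FPKM. Alox15, the tested one, stood at 1.28 and 0.499 FPKM in the Usp25+/+ animals and 4.48 and 5.68 FPKM in the Usp25-/- animals. The part of eosinophil RNA in Siglecf was not tested.

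The surface receptors Marco and Mrc1 behaved differently from each other. Marco, which binds bacteria and particles, was listed at 170 (139) and 56.2 (140) FPKM in the Usp25+/+ animals and 141 (826) and 39.3 (850) FPKM in the Usp25-/- animals. It was high in 139 and 826 and low in 140 and 850, so that each genotype had a high and a low animal, 4.33-fold apart at the extremes. The difference between the 2 animals of a genotype was 1.58 log2 units in Usp25+/+ and 1.82 in Usp25-/-, while the genotype difference was -0.39 with a 95% interval of -2.43 to 1.65 (limma adjusted p = 0.967). Its sign depended on the library: it was 0.40 without animal 139 and 0.52 without 850, and -1.18 without 140 and -1.30 without 826. Marco lies at chr1:122371115-122401661 on the minus strand of mm9.

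Mrc1, the mannose receptor CD206, had the narrowest range of the 10, at 149 and 193 FPKM in Usp25+/+ and 165 and 163 FPKM in Usp25-/-. The Usp25-/- libraries lay between those of Usp25+/+, and the highest was 1.29-fold the lowest. The log2 fold change was -0.05, and its 95% interval of -0.88 to 0.78 still includes sizeable differences in either direction. Mrc1 lies at chr2:14151041-14253684 on the plus strand of mm9. Set against Mrc1 in the same library, Marco was at a ratio of 1.14 and 0.857 in 139 and 826 and of 0.291 and 0.241 in 140 and 850.

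Car4, Atp6v0d2, Itgax and Cidec had the same order of libraries, with 140 highest, then 850, 826 and 139. Both 140 and 850 lay above both 139 and 826 in these 4 members, as in 2707 of all 12011 tested genes. The reverse held in 3 members, Marco, Fabp4 and Krt79, as in 1920 of all tested genes. Car4 was listed at 193 (139) and 399 (140) FPKM in the Usp25+/+ animals and 277 (826) and 367 (850) FPKM in the Usp25-/- animals. Atp6v0d2 was listed at 208 and 433 FPKM in the Usp25+/+ animals and 293 and 350 FPKM in the Usp25-/- animals. In both genes the Usp25+/+ animals were the extremes and the Usp25-/- animals lay between them, with log2 fold changes of 0.20 and 0.09. Itgax stood at 96.1 and 208 FPKM in the Usp25+/+ animals and 99.4 and 140 FPKM in the Usp25-/- animals, a log2 fold change of -0.26. Cidec, a protein of lipid droplets, stood at 2.64 and 6.72 FPKM against 4.40 and 4.85 FPKM, a log2 fold change of 0.08. In each of these 4 genes the Usp25+/+ animals differed by 1.04 to 1.10 log2 units, more than the genotypes did. The signs for Car4, Atp6v0d2 and Cidec turned without animal 139, to -0.32, -0.44 and -0.46, and that for Itgax turned without 140, to 0.29. Without 850, Car4 and Atp6v0d2 were near 0, at -0.002 and -0.04. In mm9, Car4 lies at chr11:84771288-84779546 and Itgax at chr7:135273061-135294171 on the plus strand, and Atp6v0d2 lies at chr4:19803988-19849752 and Cidec at chr6:113374628-113385754 on the minus strand.

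Fabp4, a carrier of fatty acids, went the other way, at 403 (139) and 244 (140) FPKM in the Usp25+/+ animals and 394 (826) and 329 (850) FPKM in the Usp25-/- animals. It was high in 139 and 826, as Marco was, but over a narrower range of 1.65-fold. The log2 fold change was 0.20 (95% interval -0.83 to 1.22), and -0.16 without animal 140. Fabp5, a second fatty acid carrier of these cells, stood at 165, 745, 484 and 835 FPKM in 139, 140, 826 and 850, so that the ratio of Fabp4 to Fabp5 was 2.44 in 139, 0.328 in 140, 0.815 in 826 and 0.394 in 850. Fabp4 lies at chr3:10204347-10208576 on the minus strand of mm9, with 4 exons.

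Krt79 was the least abundant member, at 2.17 and 0.136 FPKM in Usp25+/+ and 3.56 and 0.735 FPKM in Usp25-/-. Its higher values were again in 139 and 826, the libraries with more genes above 0, and the part of that difference between libraries in its values was not tested. The log2 fold change was 0.57 (95% interval -1.24 to 2.38), and it turned to -0.17 without animal 140 and to -0.13 without 826. It was 1.31 without 139 and 1.26 without 850, and with a pseudocount of 0.1 FPKM in place of 1 it was 1.26, above that of Pparg (0.92). Krt79 is also known from skin and its glands. Of 10 squamous epithelial markers, Krt5 and Krt14 stood at 19.0 and 25.6 FPKM in 139 and at no more than 0.191 and 4.05 FPKM in the other libraries, while Krt79 was highest in 826. The squamous list summed to 56.6, 1.12, 4.46 and 4.22 FPKM in 139, 140, 826 and 850, and its part in Krt79 was not tested. Krt79 lies at chr15:101759763-101770755 on the minus strand of mm9.

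**Figure D2:**
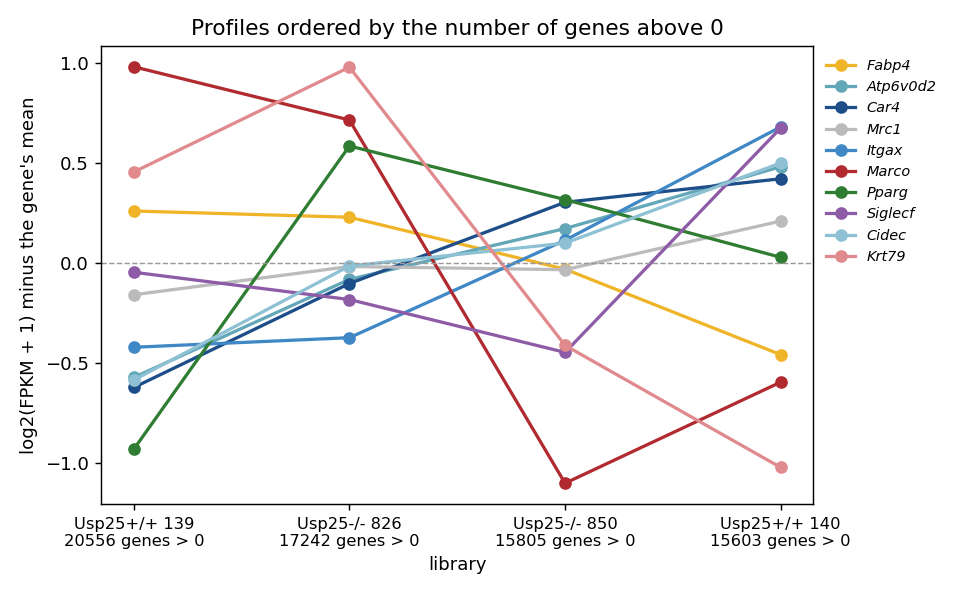
Log2(FPKM + 1) minus the gene's own mean (y axis) for each of the 10 genes in the 4 libraries, which are ordered on the x axis by how many genes they list above 0 (20556 in 139 to 15603 in 140); lines join the values of a gene and stand for no time or dose. Marco, Krt79 and Fabp4 lie above their means in 139 and 826, and Car4, Atp6v0d2, Itgax and Cidec lie highest in 140.

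The genotype difference was also taken between the libraries with the most genes above 0 (826 and 139) and between those with the fewest (850 and 140), and its sign was not the same for most members. The gene numbers of 850 and 140 were close, while 826 lay nearer to 850 than to 139. Between 826 and 139, 7 of the 10 genes stood higher in Usp25-/-, and between 850 and 140, 7 stood lower. Pparg and Krt79 were higher in both comparisons, Pparg by 1.52 and 0.29 and Krt79 by 0.52 and 0.61 log2 units. Siglecf and Marco were lower in both, Siglecf at -0.14 and -1.12 and Marco at -0.27 and -0.51 log2 units. The other 6 genes had opposite signs in the 2 comparisons. Each comparison has 1 library per genotype, so no test was possible, and the pairs were formed after the gene numbers were seen.

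**Figure D3:**
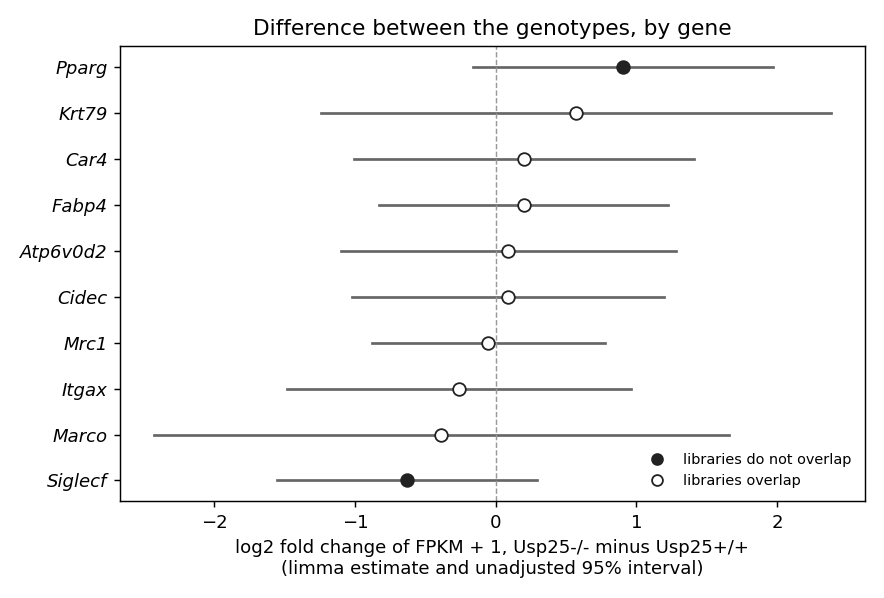
Log2 fold change of FPKM + 1, Usp25-/- minus Usp25+/+ (x axis), for each of the 10 genes (y axis), as the limma estimate with its unadjusted 95% interval (n = 2 per genotype); filled points are genes whose libraries do not overlap between the genotypes. Every interval includes 0, and Pparg (0.90) and Siglecf (-0.63) lie at the ends.

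Further genes of alveolar macrophages were detected in all 4 libraries, at widely different levels. Of the 18 listed, Fabp1 had the lowest mean, with 5.45 to 16.4 FPKM, and Chil3 and Cd9 had the highest. Chil3, a chitinase-like secreted protein, stood at 6219, 8777, 8882 and 6380.0 FPKM in 139, 140, 826 and 850, with reads that near-identical family members may share. The tetraspanin Cd9 stood at 1530.1, 2580, 2608 and 2277 FPKM. Of the 18 listed genes, all tested, 0 passed limma at an adjusted p of 0.05. Their median log2 fold change was 0.20, with 15 above 0 (53.5% of all tested genes) and 3 below. The libraries did not overlap in 2 of them, Krt19 higher (1.27) and Lpl lower (-0.41), a smaller share than the 33.8% of all tested genes. Krt19 is also a keratin of many epithelia and was highest in 826, at 727 FPKM against 149 to 252 FPKM elsewhere. The sign of this median depended on the library as well: it was 0.92 without animal 140 (16 genes above 0) and -0.35 without 139 (1 gene above 0). The mean log2(FPKM + 1) of the list was 6.67 in 139 and 7.39 to 7.74 in the other libraries.

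General macrophage markers stood lower in Usp25-/-. Of the 7 genes, all had a log2 fold change below 0, with a median of -0.44, and in 4 the libraries did not overlap (14.7% of all tested genes were lower without overlap), although 0 passed limma at an adjusted p of 0.05. All 7 stayed below 0 without 139, 826 or 850, and 4 of 7 did without 140. Mpeg1, a pore-forming protein of phagocytes, stood at 630 and 654 FPKM in Usp25+/+ and 391 and 462 FPKM in Usp25-/-. Adgre1, the F4/80 antigen, had a log2 fold change of -0.74, with 142 and 110 FPKM against 72.5 and 76.5 FPKM. Cd68, a lysosomal glycoprotein, overlapped, at 333 and 874 FPKM against 331 and 482 FPKM. Set against the mean of these 7 markers in the same library, the mean of the identity genes was -0.80 and -0.74 log2 units in Usp25+/+ and -0.01 and -0.50 in Usp25-/-. The Usp25-/- libraries were thus higher on this relative scale, by 0.51 log2 units between the means, with a value of 0.24 between 850 and 140 and of 0.79 between 826 and 139. Of these 0.51 units, the mean of the general markers, at a genotype difference of -0.44, made the larger part, and the mean of the identity genes stood at 0.07.

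**Figure D4:**
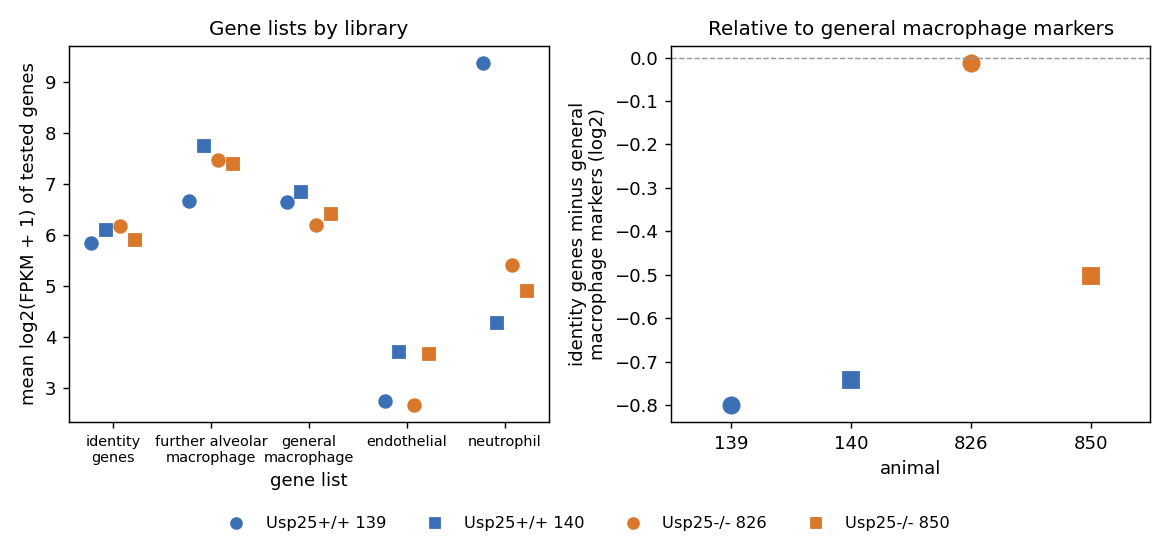
Left, mean log2(FPKM + 1) of the tested genes (y axis) of 5 gene lists (x axis) in each library; right, the mean of the 10 identity genes minus that of 7 general macrophage markers (y axis, log2 units) in each animal (x axis). Colour gives the genotype and shape the animal, and on the right both Usp25-/- animals (-0.01 and -0.50) lie above both Usp25+/+ animals (-0.80 and -0.74).

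Genes of the signals that maintain alveolar macrophages were measured alongside. Of 19 genes of the GM-CSF, M-CSF and TGF-beta axis, 14 had a log2 fold change below 0, as did 46.5% of all tested genes, and 5 above, with a median of -0.18. The libraries did not overlap in 6, near the 33.8% of all tested genes, with 5 lower and 1 higher, and 0 passed limma at an adjusted p of 0.05. The median was -0.43 without 139 (13 genes below 0) and -0.36 without 140 (11 genes below 0). Csf2, which encodes GM-CSF, was listed at 6.35 and 2.60 FPKM in the Usp25+/+ animals and 48.0 and 3.42 FPKM in the Usp25-/- animals, so that 826 alone was high. Csf2ra, the specific receptor chain for it, stood at 88.2 and 193 FPKM against 104 and 127 FPKM. The shared chain Csf2rb and Csf2rb2, a near copy that can share reads with it, were lower without overlap, with log2 fold changes of -0.61 and -0.90. Both were highest in 139, and Csf2rb in 140 lay close above 826, at 95.3 and 91.4 FPKM. Tgfb1, Tgfbr1 and Tgfbr2 overlapped, with log2 fold changes of -0.03, -0.09 and -0.06. Spi1, which encodes PU.1, stood at 185 and 243 FPKM in Usp25+/+ and 110 and 148 FPKM in Usp25-/-. Cebpb, a transcription factor of myeloid cells, was the gene higher without overlap, at 127 and 200 FPKM against 246 and 208 FPKM. Csf1, the ligand of the M-CSF receptor, stood at 59.9 FPKM in 139 and at 3.24 to 4.19 FPKM in the other libraries. Csf2, Csf2ra, Csf2rb, Csf2rb2, Tgfb1, Tgfbr1 and Tgfbr2 were named for their role after their values were seen.

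Lipid handling genes had no common direction. Of 14 genes, 6 had a log2 fold change above 0 and 8 below, with a median of -0.09 that became 0.23 without animal 140, -0.23 without 139 and 0.009 without 826. Plin2, a coat protein of lipid droplets, had a narrow range, at 719 and 792 FPKM in Usp25+/+ and 675 and 704 FPKM in Usp25-/-. Lipa, the acid lipase of lysosomes, stood at 185 and 403 FPKM against 232 and 296 FPKM. Without overlap, 2 of the 14 were higher and 3 lower, where 19.0% and 14.7% of all tested genes were. Of the 14, 0 passed limma at an adjusted p of 0.05. Cidea, of the same family as Cidec, was low but free of overlap, at 0.681 and 1.05 FPKM against 3.996 and 2.52 FPKM, a log2 fold change of 1.18.

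The partner subunits of Atp6v0d2 in the V-ATPase, the proton pump that acidifies lysosomes, varied less than it did. Of 15 subunit genes, 14 had a log2 fold change below 0, with a median of -0.22, and 8 were lower without overlap, as were 14.7% of all tested genes, while 0 passed limma at an adjusted p of 0.05. Without 140, 11 of the 15 were below 0, with a median of -0.15. The largest was Atp6v0b at -0.50, with 338 and 413 FPKM against 280 and 248 FPKM. Atp6v0d1, the widely expressed alternative to Atp6v0d2, stood at 183, 202, 185 and 179 FPKM in 139, 140, 826 and 850. The ratio of Atp6v0d2 to Atp6v0d1 was thus 1.14, 2.14, 1.58 and 1.96 in these libraries.

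Other cell types express some of the 10 genes, and their markers were measured in the same libraries. Fabp4, Pparg and Cidec are known from adipocytes, whose marker Lep was listed at 0 in every library and Adipoq at no more than 0.309 FPKM, with 6 of 11 adipocyte markers under 1 FPKM in every library. Over the 4 libraries this list summed to 18.8 to 85.9 FPKM, of which Dgat2, a triglyceride enzyme, made 9.86 to 73.7 FPKM. Car4 and Fabp4 are also known from capillary endothelium. The 9 endothelial markers summed to 93.6 and 90.5 FPKM in 139 and 826 and to 214 and 187 FPKM in 140 and 850. In 8 of the 9 both 140 and 850 lay above both 139 and 826, as they did in 2707 of all 12011 tested genes. Car4 was likewise higher in 140 and 850 and Fabp4 higher in 139 and 826, and the part of endothelial RNA in either was not tested. Itgax is shared with dendritic cells, whose 10 markers summed to 56.0 to 88.1 FPKM, with Flt3 and Xcr1 under 1 FPKM in every library and the chemokine Ccl17 at 28.3 to 63.4 and Ccr7 at 6.86 to 16.2 FPKM. The summed level was 74.5 and 56.0 FPKM in Usp25+/+ and 81.5 and 88.1 FPKM in Usp25-/-. Of these sums Ccl17 alone made 43.8 and 28.3 FPKM against 63.4 and 48.2 FPKM. Of the 8 dendritic cell markers tested, 4 had a log2 fold change above 0 and 4 below, with a median of -0.06. The part of dendritic cell RNA in Itgax was not tested. Atp6v0d2 is known from osteoclasts. Of 6 osteoclast markers, 2 were under 1 FPKM in every library, Oscar at most 0.282 and Ocstamp at most 0.572 FPKM. Calcr reached 1.43 FPKM in 139, and Nfatc1 stood at 5.31 to 9.58 FPKM. Dcstamp stood at 1.29 and 1.04 FPKM in Usp25+/+ and 4.95 and 2.60 FPKM in Usp25-/-. The part of such cells in Atp6v0d2 was not tested. The 6 osteoclast markers summed to 228 to 287 FPKM, of which the acid phosphatase Acp5 made 215 to 277 FPKM. Of 14 interstitial and recruited macrophage markers, 12 were tested, with 6 above 0 and 6 below and a median log2 fold change of 0.02, or -0.18 without 139, 0.22 without 140 and -0.02 under median-of-ratios scaling. The complement genes C1qa, C1qb and C1qc were lowest in 139, as were Pparg, Car4, Atp6v0d2, Mrc1, Itgax and Cidec. Of the 9 neutrophil markers, which made up far more of 139 than of any other library, 0 were free of overlap (33.8% of all tested genes). Their median log2 fold change was -1.77. Without 139 this median was 0.91, with 8 of the 9 above 0, and their part in the low values of 139 was not tested.

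The mean profile of the 10 genes was nearly flat, and its members had different orders. Relative to each gene's mean it was -0.16, 0.09, 0.17 and -0.10 log2 units in 139, 140, 826 and 850. The closest of 7568 other genes whose mean reached 5 FPKM, by the root mean square distance of their centred log2 values over the 4 libraries, were Tigd2, Coq6, Snrpb2, Otub1, Egln1 and Ube2g2, with distances of 0.0222 to 0.0277 log2 units.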

How the data were processed

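By the account of the labels' protocols, poly(A) RNA was read from both ends without keeping strand, so that reads of a gene and of an antisense neighbour are mixed. Trimming with cutadapt, TopHat2 2.1.1, Cufflinks and mm9 are named in the submitters' processing notes, and other steps are not stated there. The authors' deposited values were treated as FPKM because Cufflinks is named; no header states the unit, and depth is unknown. Each library is scaled to its own total, so that abundant genes can lower the rest.

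The scale was log2(FPKM + 1), on which changes of low genes appear too small. Of 24421 genes, 12011 reached a mean of 1 FPKM and entered limma 3.58.1 in R version 4.3.3. The functions were lmFit and eBayes, the latter with its trend option. Tests were two-sided, the adjustment was that of Benjamini-Hochberg, and the threshold was 0.05. There were 2 residual degrees of freedom before moderation. The fit was tested on simulated data, which does not show what size of difference these libraries can resolve. In the real libraries Usp25, at a log2 fold change of -3.07, did not pass. Animal numbers differ between genotypes, so samples were not paired. The members and lists were chosen with earlier results of these data known. All members were named. From other lists, the rule was the 2 genes with the highest mean and the one with the largest change, where a result turned on it; further genes, known for a role or free of overlap, were chosen after their values were seen. Summed lists and relative levels were given without a test. Alternatives were other pseudocounts, filters and scalings, a fit without trend, and leaving out each library, where a lone library takes its spread from the other genotype. Comparisons of 826 with 139 and of 850 with 140 were added after seeing the data. Coordinates came from GENCODE vM1 on NCBIM37 (mm9), which lists 9 of the 10 symbols.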

Additional observations from a re-analysis of the deposited data

How the results depend on the processing

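With 2 libraries per genotype and unknown depth, small differences cannot be resolved, and the limma threshold also missed the large difference in Usp25 itself. The count of genes past the limma threshold was 0 under every alternative run, with 108 to 2593 genes at an unadjusted p under 0.05. Under other pseudocounts, filters and scalings, no tested member changed direction, though Krt79 moved from 0.57 to 0.78 and 1.26 with pseudocounts of 0.5 and 0.1 FPKM, and Pparg and Siglecf were the members without overlap; the filter of at least 5 FPKM left out Krt79 and Cidec. Leaving out 1 library at a time moved the number of genes without overlap from 4054 to between 6361 and 9707, since 3 libraries overlap less often than 4. It moved the members' median log2 fold change to between -0.28 and 0.21, that of the further alveolar macrophage genes to between -0.35 and 0.92, and the level relative to general macrophage markers to between 0.27 and 0.76. Over the same fits the log2 fold change ran from -1.30 to 0.52 for Marco, -0.24 to 0.13 for Mrc1, -0.81 to 0.29 for Itgax, -0.16 to 0.56 for Fabp4, -0.32 to 0.72 for Car4, -0.44 to 0.62 for Atp6v0d2, -0.17 to 1.31 for Krt79 and -0.46 to 0.63 for Cidec, while Pparg (0.42 to 1.38) and Siglecf (-0.99 to -0.27) kept their direction. Between 826 and 139 alone, the further genes had a median of 0.83 and the relative level was 0.79, and Mrc1 (0.14), Itgax (0.048) and Fabp4 (-0.031) turned. Between 850 and 140 alone, the members' median was -0.28, that of the further genes -0.40 and the relative level 0.24, and Car4 (-0.12), Atp6v0d2 (-0.31) and Cidec (-0.40) turned. Apart from the effect of fewer libraries on overlap, the cause was not tested. No paired analysis was possible because the genotypes share no animal numbers.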
